A study of Mus musculus with 14 samples.

Results

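The 2 subsets of classical dendritic cells (cDC) of the mouse spleen were compared, CD4+ cDC and CD8+ cDC, on 4 of the 14 single-colour arrays of the series. The arrays were chosen by their labels alone: 2 were labelled WT_CD4+_cDC and 2 were labelled WT_CD8+_cDC. Both groups were freshly isolated splenic cells of wild-type C57BL/6 mice that carried CD11c and MHC class II. The CD4+ cells carried CD4 and lacked CD8 and were enriched with magnetic beads (MACS) alone. The CD8+ cells carried CD8 and lacked CD4 and were sorted by flow cytometry (FACS) after the beads. The animals' age and number, and any pooling, are not given in the sources used here. The CD4+ RNA was hybridised to a smaller array design, on a slide and in a scan of its own, so array design, slide, scan and purification cannot be told apart from the subset. No label says whether the 2 arrays of a group hold different animals; the p-values therefore reflect array-to-array spread, which may be technical. In such bulk RNA, fewer cells of a type and less RNA per cell cannot be told apart.

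Classical dendritic cells capture antigen and display it to T cells. CD8+ cells are the splenic form of type 1 cDC (cDC1), which need the transcription factors IRF8, BATF3 and ID2, take up dead cells and present their antigens on MHC class I to CD8+ T cells. CD4+ cells form the larger share of splenic type 2 cDC (cDC2), which depend on IRF4, ZEB2 and, in spleen, on NOTCH2 signals, and which mainly stimulate CD4+ T cells. Both arise from pre-cDC of the bone marrow.

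Levels are given as log2 of the deposited intensity, for the first and second array of a group in that order, and differences are the mean of CD4+ cDC minus the mean of CD8+ cDC with the standard error (SE) of the fit. Both designs shared 39429 probes, which named 20307 genes, and 13559 genes were tested, those detected well above background on both arrays of 1 subset or of both. Of these, 10018 (73.9%) passed limma's test at an adjusted p under 0.05, 5713 higher in CD4+ and 4305 higher in CD8+ cDC. Since most genes passed, the counts below are of large differences, which passed the test and had a fitted difference of at least 4-fold. There were 1715 large differences. CD4+ cDC had the higher level in 1018 (7.51% of genes tested) and CD8+ cDC in 697 (5.14%).

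The split of the large differences, 59.4% higher in CD4+ cDC, was 45.2% after another background correction (normexp), under which 826 genes were large, 751 of them among the 1715. Replicate arrays correlated at 0.993 (CD4+) and 0.997 (CD8+) across genes, and the group means at 0.894; genes are not independent replicates. Between 55.5% and 61.4% of probes were well above background on the 4 arrays, and no spot was saturated. Of the genes higher in CD4+ cDC, 535 were well above background on all 4 arrays and 415 on neither CD8+ array. For those higher in CD8+ cDC the numbers were 563 and 110. A further 68 higher in CD4+ and 24 higher in CD8+ cDC were well above background on 1 array of the dimmer subset, and no bound was set for them. A fold against a level below background is not established by the fit, and with the dimmer subset set at the floor that the "at least" folds below use, 209 of the 415 and 45 of the 110 were under 4-fold. That leaves 1461 genes large also at this bound, 809 higher in CD4+ and 652 in CD8+ cDC. Differences of at least 64-fold numbered 17 in the direction of CD4+ and 16 in that of CD8+ cDC.

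**Figure D1:**
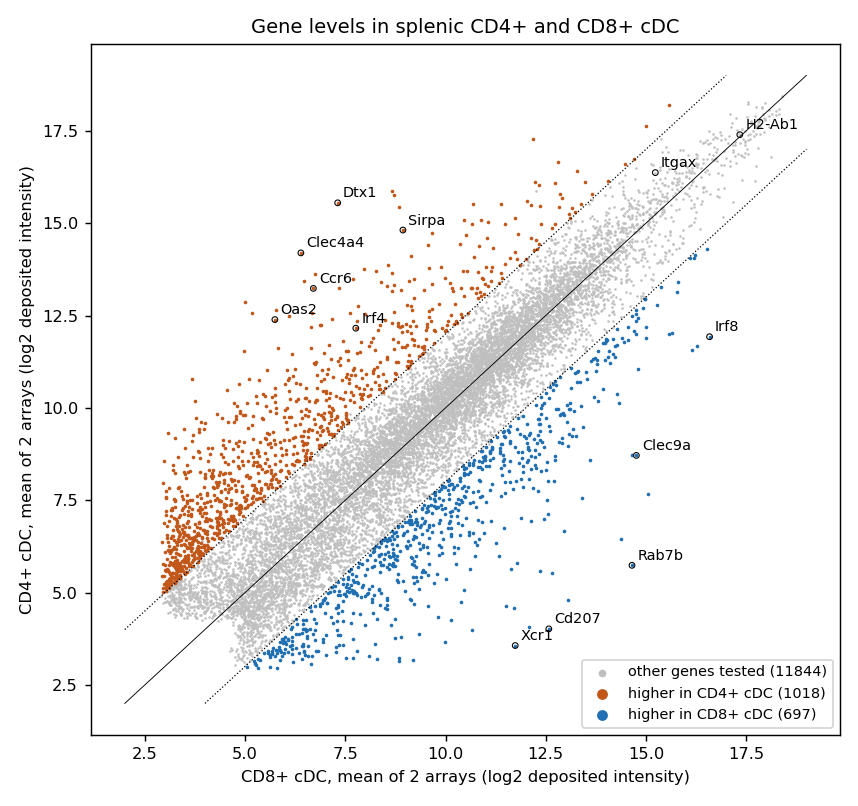
Mean log2 deposited intensity of each gene tested in CD8+ cDC (x axis) and CD4+ cDC (y axis), each over 2 arrays; orange and blue points are large differences, dotted lines mark 4-fold and the solid line equality. Dtx1, Clec4a4 and Ccr6 stand far above the band, Xcr1, Cd207 and Rab7b far below it, and H2-Ab1 and Itgax within it.

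The genes of the gates were used to check the labels. Cd8a, which encodes the alpha chain of CD8, read 4.72 and 4.90 on the CD4+ arrays and 12.92 and 13.20 on the CD8+ arrays, a difference of -8.25. Its partner gene Cd8b1 read 4.70 and 4.88 against 5.27 and 5.37 and did not pass the test (adjusted p = 0.305); splenic CD8+ cDC are known to carry CD8 as a pair of alpha chains. Cd4 had 2 probes. The dimmer read 9.05 and 9.06 on the CD4+ arrays and 5.0 and 4.92 on the CD8+ arrays. The brighter, used in the fit, read 12.78 and 13.31 against 11.55 and 11.27, and was also near 11 to 12 in pre-cDC and neutrophils. Both probes were higher on the arrays labelled CD4+. H2-Ab1, an MHC class II chain of both gates, differed by 0.05 ± 0.09 (SE), and Itgax, which encodes CD11c, by 1.13 ± 0.07. These genes chose the cells and are no findings.

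The 31 gene lists share some genes, so their counts are not independent. Of all 13559 genes tested, 7.51% were large and higher in CD4+ and 5.14% in CD8+ cDC, and 5713 and 4305 passed the test. Each list count is to be read beside these. The cDC1 programme had the largest median difference of the 31 lists, by size. All 28 measured genes of the list were tested: 26 passed with the higher level in CD8+ cDC, 23 of them as large differences, 1 passed in the other direction and 1 did not pass. The median difference was -4.07, beside 0.14 over all genes tested. Xcr1, the receptor for the chemokine XCL1 that CD8+ T cells secrete, read 3.50 and 3.63 on the CD4+ arrays and 11.74 on both CD8+ arrays. It was not well above background on either CD4+ array and so at least 189-fold higher in CD8+ cDC. Cd207, which encodes the lectin langerin, read 3.99 and 4.05 against 12.63 and 12.52, at least 338-fold higher. Gcsam, a signalling adaptor also found in germinal centre B cells, was at least 239-fold higher. On all of these the arrays of the subsets were far apart.

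Other members of the cDC1 list have roles in uptake, endosomes and lysosomes. Clec9a, a lectin that recognises the actin skeleton of dead cells, read 8.46 and 8.96 in CD4+ and 14.72 and 14.80 in CD8+ cDC (66.1-fold, adjusted p = 7.51e-07). Rab7b, a small GTPase of late endosomes, had the largest fitted difference of the list at -8.91, but its CD4+ arrays read 4.90 and 6.58, and it was -8.07 without the first of them. Cadm1, an adhesion molecule, differed by -5.20 ± 0.33, Naaa, a lysosomal amidase, by -4.60 ± 0.10, and Ppt1, a lysosomal thioesterase, by -3.91 ± 0.09. Gpr141b, an orphan receptor, read 6.45 and 6.46 against 14.32 and 14.43. Ly75, the lectin DEC-205, differed by -3.10, and with normexp by -1.65, below the 4-fold limit. Wdfy4, which cross-presentation of cell-associated antigen requires, was bright in both subsets, at 16.78 and 16.89 against 17.29 and 17.46. Its difference of -0.54 passed the test but was small. The probe used, the brighter of 2, also had means of 13.94 in granulocyte-monocyte progenitors and 14.63 in neutrophils.

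The transcription factors of the cDC1 list did not share 1 pattern. Irf8 read 12.11 and 11.74 in CD4+ and 16.63 and 16.54 in CD8+ cDC (25.3-fold, -4.66 ± 0.11, adjusted p = 7.64e-09), and its 4 values did not overlap between groups. Mycl, a MYC family member that supports cDC1 growth but is outside this list, differed by -4.34 ± 0.16. Id2 differed by -1.07 ± 0.15, below the limit for a large difference, and Nfil3 by -0.19 (adjusted p = 0.165). Batf3, required for cDC1 development, read 14.82 and 14.67 in CD4+ against 14.46 and 14.52 in CD8+ cDC. Its sign depended on the scaling: 0.25 with the deposited table and -0.30 with the processed signal.

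The cDC2 programme leaned the other way. Of 30 measured genes 28 were tested, 24 passed with the higher level in CD4+ cDC, 19 of them as large differences, 2 passed in the other direction and 2 did not pass. The median difference was 3.17. Clec4a4, the inhibitory lectin DCIR2 recognised by the antibody 33D1, read 14.26 and 14.13 in CD4+ and 6.47 and 6.32 in CD8+ cDC, 223-fold higher. Sirpa, which encodes the CD47 receptor CD172a and is used to gate cDC2, read 14.78 and 14.84 against 8.98 and 8.89 (58.7-fold, adjusted p = 1.15e-10). No array of either subset came near the other for these genes.

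Irf4 read 12.10 and 12.21 in CD4+ and 7.73 and 7.79 in CD8+ cDC. Its arrays agreed within each subset, but the SE of 1.14 was wide because the spread is shared with the other groups, where the 2 neutrophil arrays read far apart (adjusted p = 0.00758). Zeb2, a repressor that favours cDC2, differed by 4.27 ± 0.09 and Relb, an NF-kappaB subunit, by 3.34 ± 0.12. Klf4 read 11.24 and 11.99 against 9.67 and 9.66; its difference of 1.95 was below the limit. Ltb, a lymphotoxin chain, was 14.6-fold higher, Csf1r 10.1-fold, Cd209a 31.9-fold and S100a4 34.2-fold. Esam, an adhesion molecule of the NOTCH2-dependent cDC2, differed by 2.58, but by 1.82 with normexp, and Clec10a (3.0, 1.65 with normexp) and Lyz2 (2.56 and 1.81) likewise left the 4-fold range.

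Not every gene of the cDC2 list followed the subset. Itgam, which encodes CD11b, read 12.95 and 13.38 in CD4+ and 13.29 and 12.81 in CD8+ cDC (adjusted p = 0.562). Ccr2, a receptor of monocytes and of some cDC2, was slightly higher in CD8+ cDC, by 0.71 ± 0.15 in size, as was Cd300a. Mgl2 was at 15.76 and 15.72 against 15.42 and 15.40, a difference that changed sign with the processed signal. Its only probe was bright in other groups too, with means of 16.05 in granulocyte-monocyte progenitors and 14.53 in neutrophils. It may therefore not track the gene. Clec12a and Clec4a2 were not well above background on both arrays of either subset.

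**Figure D2:**
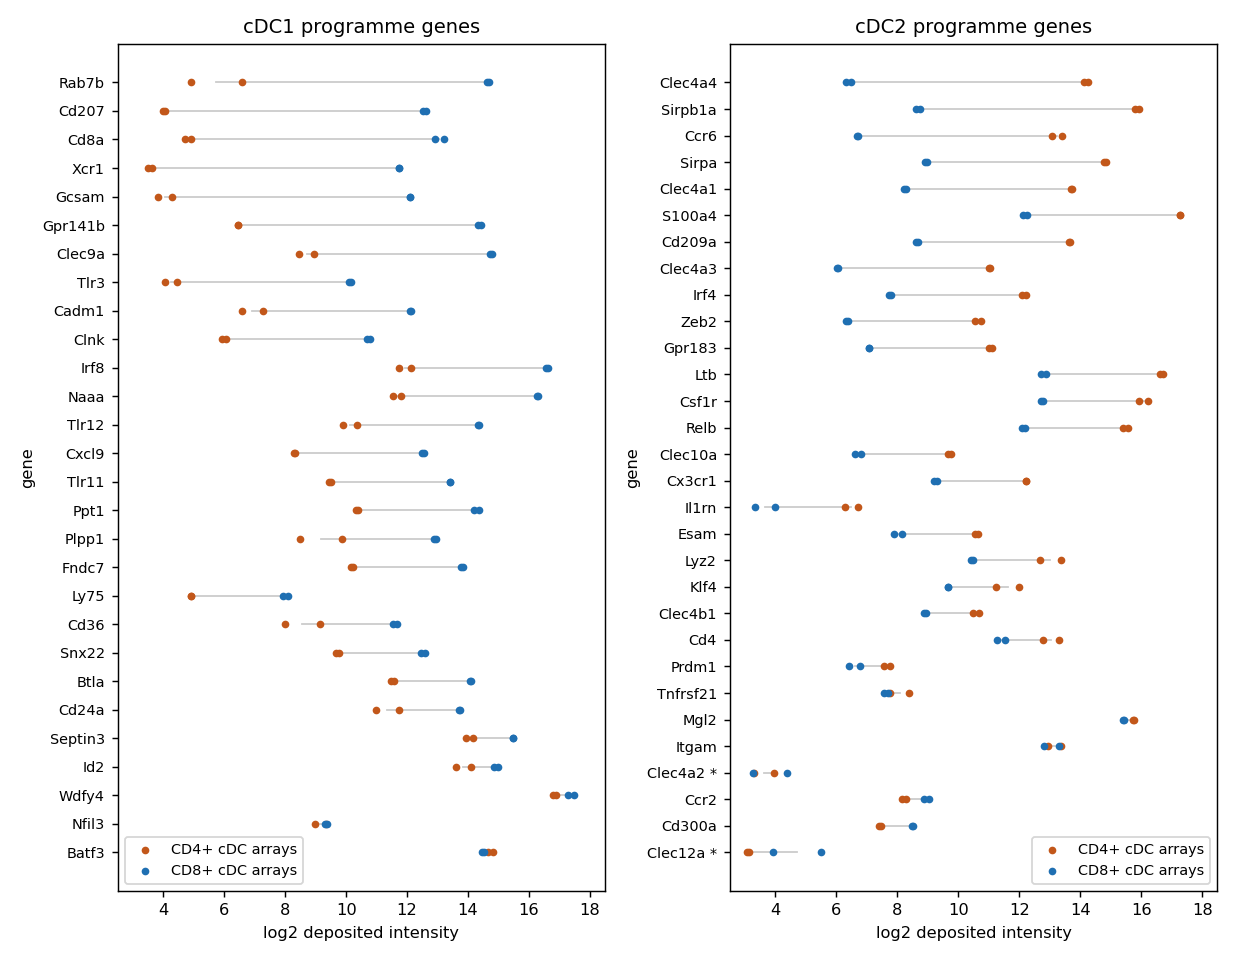
Log2 deposited intensity (x axis) of the measured genes of the cDC1 and cDC2 lists (y axis) on each of the 4 arrays, with a grey line between the group means; an asterisk marks genes not well above background on both arrays of either subset. In the cDC1 list 23 genes are large and higher in CD8+ cDC, in the cDC2 list 19 are large and higher in CD4+ cDC, and Batf3, Itgam and Mgl2 have overlapping or neighbouring values.

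Levels in the marrow precursor and in neutrophils are given for orientation. Irf8 was brightest in pre-cDC, at a mean of 17.36, above the levels of both subsets and nearer to that of CD8+ cDC. Zeb2 in pre-cDC (11.05) was close to the CD4+ level instead. Xcr1 (3.42), Tlr3 (3.24), Dtx1 (3.11) and Clec4a4 (2.97) were low in pre-cDC and high in 1 splenic subset. Over all large differences, pre-cDC lay nearer to the dimmer subset in 695 of the 1018 genes higher in CD4+ cDC and in 304 of the 697 higher in CD8+ cDC. Among the 6 wild-type groups, CD4+ cDC were the brightest for 574 of the 1018 and CD8+ cDC for 317 of the 697, while neutrophils were the brightest for 203 and 220. The genes were selected for a higher level in 1 subset, so the other subset could not be the brightest and the selected one was favoured. The same shares over all genes tested are not given. These shares have no test, and the CD4+ arrays differ from the others in design. The deposited pre-cDC values also followed their processed signal less closely than those of the other groups.

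**Figure D3:**
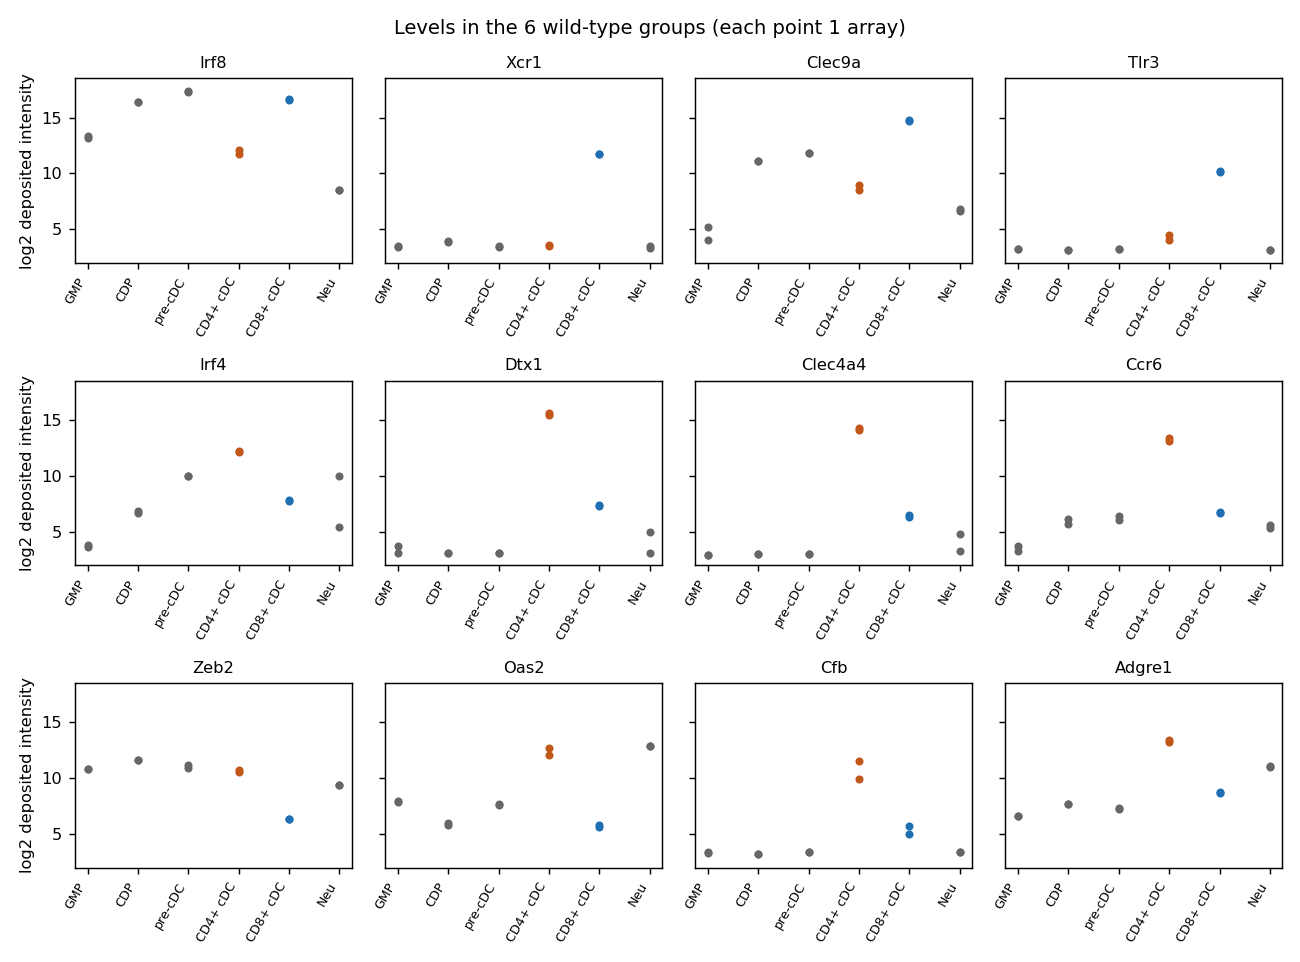
Log2 deposited intensity (y axis) of 12 genes on every wild-type array, by group (x axis: GMP, granulocyte-monocyte progenitors; CDP, common dendritic cell progenitors; pre-cDC; CD4+ and CD8+ cDC; Neu, neutrophils). Irf8 is high in CDP, pre-cDC and CD8+ cDC and lower in CD4+ cDC, Zeb2 is low in CD8+ cDC, and Dtx1, Clec4a4 and Ccr6 are high in CD4+ cDC alone among these 6 groups.

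Of the Notch pathway, in which a ligand on a neighbouring cell triggers the cleavage of a NOTCH receptor by proteases and the freed part acts with RBPJ in the nucleus, 1 gene stood out. Dtx1, the ubiquitin ligase Deltex and a known Notch target, read 15.47 and 15.63 in CD4+ and 7.27 and 7.35 in CD8+ cDC, 303-fold higher (8.24 ± 0.50, adjusted p = 1.29e-06). In the rest of the list the direction was mixed: of 27 genes tested, 11 passed higher in CD4+ and 11 higher in CD8+ cDC, 4 and 1 of them as large differences, with a median of -0.29. Jag1, a ligand, differed by 2.61 and Maml3, a coactivator, by 2.29, both below the limit with normexp (1.73 and 1.28). The receptor gene Notch4 was 16.9-fold higher in CD8+ cDC, at 12.99 and 13.11 against 8.76 and 9.18. Notch2 itself read 12.50 and 12.65 against 12.92 and 12.96 and Rbpj 11.38 and 11.42 against 11.79 and 11.75, both small differences. The median of this list changed sign with the scaling, and with normexp the large differences numbered 1 and 1.

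Among 51 dendritic cell transcription factors, 11 were large and higher in CD4+ and 2, Irf8 and Mycl, higher in CD8+ cDC, with a median of 0.49 (7 and 3 with normexp). Beside Irf4, Zeb2 and Relb, Stat4, which relays interleukin 12 signals, was 12.5-fold higher in CD4+ cDC, at 10.72 and 10.94 against 7.15 and 7.23. Pou2af1, a coactivator best known in B cells, was 9.82-fold higher. Genes shared by all cDC held few large differences. Of 29 core genes, none was large and higher in CD4+ cDC and 2, Snx22 and Btla, were large and higher in CD8+ cDC. Both are also members of the cDC1 list. Of the core genes, 14 passed the test higher in CD4+ and 8 higher in CD8+ cDC, with a median of 0.26. Flt3, the receptor of the cDC growth factor, read 14.50 and 14.56 against 14.33 and 14.51 (adjusted p = 0.61).

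The Toll-like receptors were divided between the subsets. Tlr3, the endosomal sensor of double-stranded RNA, read 4.45 and 4.06 in CD4+ and 10.09 and 10.17 in CD8+ cDC (-5.88 ± 0.11). It was well above background on only 1 of the CD4+ arrays, so the size of this difference is uncertain. Tlr11 and Tlr12, which together sense profilin of Toxoplasma, differed by -3.95 ± 0.35 and -4.20 ± 0.41. Tlr5, the flagellin receptor, read 7.99 and 8.23 in CD4+ cDC and was not well above background on either CD8+ array, so that it was at least 11.8-fold higher. Tlr1, the partner of TLR2, was 23.5-fold higher in CD4+ cDC. Tlr2 read 11.32 and 11.37 against 11.31 and 11.42 and did not pass (adjusted p = 0.74), and the nucleic acid sensors Tlr7 (1.82) and Tlr9 (-1.19) passed below 4-fold in opposite directions. In all, 4 genes of the list of 28 were large and higher in CD4+ and 3 higher in CD8+ cDC (2 and 3 with normexp). The 3 were Tlr3, Tlr11 and Tlr12, which are also members of the cDC1 list.

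Cytosolic sensors were one-sided. Of 26 genes tested, 17 passed higher in CD4+ and 3 higher in CD8+ cDC, and 5 and none were large (3 and none with normexp). Ddx58, which encodes the RNA helicase RIG-I, read 12.16 and 12.21 against 6.56 and 6.70, 46.9-fold higher. Nod1, a sensor of bacterial peptidoglycan, was 11.2-fold higher, and Nlrc4, an inflammasome scaffold, differed by 3.46 ± 0.18. Sting1, the adaptor for cyclic dinucleotides, differed by 2.30, and by 1.99 with normexp.

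C-type lectin receptors, through which dendritic cells bind glycans, held large differences in both directions. Of 28 genes tested, 13 were large and higher in CD4+ and 6 in CD8+ cDC, with a median of 1.86 (7 and 4 with normexp). Of the Clec4a family on chromosome 6, Clec4a1 was 43.9-fold and Clec4a3 31.7-fold higher in CD4+ cDC, as was Clec4a4, while Clec4a2 was too dim to be tested. Clec4b2 of the same cluster went the other way. It read 3.94 and 4.01 in CD4+ cDC, not well above background, and 10.66 and 10.68 in CD8+ cDC, at least 90.0-fold higher. Members of the Cd209 family were also divided: Cd209a was higher in CD4+ cDC, and Cd209e read 6.23 and 5.77 against 8.53 and 8.64 (-2.58, and -1.77 with normexp). Cd72, a regulator of B cell receptor signals, was 59.5-fold higher in CD4+ cDC. Lectins of these families are close copies, so a probe may also bind RNA of a neighbour.

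Of 11 Fc receptor genes tested, 1 was large and higher in CD4+ and 2 in CD8+ cDC. Fcer1g, the common signalling chain, read 16.12 and 16.10 in CD4+ and 12.22 and 12.23 in CD8+ cDC (14.8-fold). Fcrla, an intracellular immunoglobulin-binding protein of B cells, read 6.43 and 7.05 against 11.46 and 11.47, 26.4-fold higher in CD8+ cDC. The subsets did not overlap on either gene.

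Adhesion genes held a few large differences in each direction. Of 29 tested, 4 were large and higher in CD4+ and 3 in CD8+ cDC (2 and 2 with normexp), beside 7.51% and 5.14% of all genes tested. Itgb3, an integrin chain, read 10.72 and 10.86 in CD4+ and 6.85 and 7.08 in CD8+ cDC, 14.1-fold higher, and F11r, a junction molecule, was 10.1-fold higher.

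Chemokine receptors also differed between the subsets. Of 23 genes tested, 9 were large and higher in CD4+ and 3 in CD8+ cDC, with a median of 1.27 (6 and 2 with normexp). Of the genes named here, Ccr6, Gpr183 and Cx3cr1 are also members of the cDC2 list and Xcr1 of the cDC1 list. These counts are therefore not independent of those lists. Ccr6, the receptor of CCL20, read 13.08 and 13.39 in CD4+ and 6.69 and 6.72 in CD8+ cDC, 92.4-fold higher. Gpr183, the oxysterol receptor EBI2 that positions CD4+ cDC at the bridging channels, was 15.9-fold higher, and Cx3cr1, the fractalkine receptor, 7.83-fold. The decoy receptors Ackr1 (51.2-fold) and Ackr3 (at least 24.9-fold) were on the same side. On the CD8+ side stood Xcr1, Cxcr3, the receptor of CXCL9 and CXCL10, which read 9.0 and 9.10 against 12.87 and 12.97, and Ccr9 (-2.52, and -1.98 with normexp). Where genes had to be well above background on all 4 arrays, the list held 5 and 2 large differences.

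Of the secreted factors, 8 of 26 cytokine genes were large and higher in CD4+ cDC and none in CD8+ cDC (4 and none with normexp); 16 passed higher in CD4+ and 3 in CD8+ cDC. Vegfa, which drives vessel growth, read 9.30 and 9.55 in CD4+ cDC and was not well above background on either CD8+ array, at least 29.2-fold higher, and Bmp2 at least 26.1-fold. Tnfsf14, the ligand LIGHT, was 7.22-fold higher. Ccl9, a chemokine of myeloid cells, read 11.72 and 11.69 against 7.0 and 7.18, 24.5-fold higher in CD4+ cDC. Cxcl9 was the 1 large chemokine on the CD8+ side, at 12.48 and 12.54 against 8.33 and 8.29. The 19 chemokine genes tested held 6 and 1 large differences (5 and 2 with the processed signal). Of the 6, Pf4 and Ppbp are platelet genes and Cxcl12 a stromal gene, and their CD4+ arrays differed: Pf4 read 8.91 and 10.94 and Cxcl12 10.78 and 7.88. Without the first CD4+ array the difference of Pf4 was 6.05 and that of Cxcl12 2.20, and without the second 4.03 and 5.10; fitted on the 4 cDC arrays alone, Cxcl12 did not pass.

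Receptors for cytokines and checkpoint ligands differed in both directions. Il2rg, the common gamma chain, read 13.55 and 13.31 in CD4+ and 9.03 and 9.13 in CD8+ cDC (20.4-fold), and Il18r1 was at least 15-fold higher. Il15ra, which presents interleukin 15, was 6.03-fold higher in CD8+ cDC, though by only 1.37 in log2 size when a gene's probes were averaged. Tgfbr1, a receptor chain of TGF-beta, differed by -2.74, and by -1.34 when averaged in this way. Of 38 receptor genes, 10 were large and higher in CD4+ and these 2 in CD8+ cDC (4 and 2 with normexp, 10 and 0 with probes averaged). The PD-1 ligands were higher in CD4+ cDC, Cd274 7.29-fold and Pdcd1lg2 15.2-fold, while Havcr2, which encodes TIM-3, was 5.57-fold higher in CD8+ cDC at 13.80 and 13.74 against 11.24 and 11.35. The 32 costimulation and checkpoint genes tested held 4 and 3 large differences (2 and 4 with normexp).

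Antigen presentation genes were bright in both subsets. In the MHC class II list, 20 of 28 genes passed higher in CD4+ and 6 in CD8+ cDC, with a median of 0.88, but 4 and 2 were large. The nonclassical chain genes H2-Eb2 (13.81 and 13.80 against 9.92 and 9.83) and H2-DMb2 (13.20 and 13.17 against 9.47 and 9.45) were the largest on the CD4+ side. Ciita, the master coactivator of class II genes, went against them. It read 6.75 and 8.25 in CD4+ and 12.75 and 12.30 in CD8+ cDC, a difference of -5.02 ± 0.61, and of -4.27 without the first CD4+ array. The chains H2-Aa and Cd74 differed by 0.59 and 0.40. Without the second CD4+ array the list held 7 and 2 large differences, and with normexp or the processed signal 4 and 4.

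Genes of MHC class I loading and cross-presentation differed little as a list. Of 32 tested, 2 were large and higher in CD4+ and 1 in CD8+ cDC, with a median of -0.10 (1 and 1 with normexp). Psme3, a proteasome activator, was 6.88-fold higher in CD8+ cDC. Cybb, the catalytic chain of the phagocyte NADPH oxidase, read 10.75 and 10.60 in CD4+ and 6.29 and 6.23 in CD8+ cDC, 21.3-fold higher. B2m differed by 0.24 (adjusted p = 0.40) and Tap1 by -0.07 (adjusted p = 0.50).

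**Figure D4:**
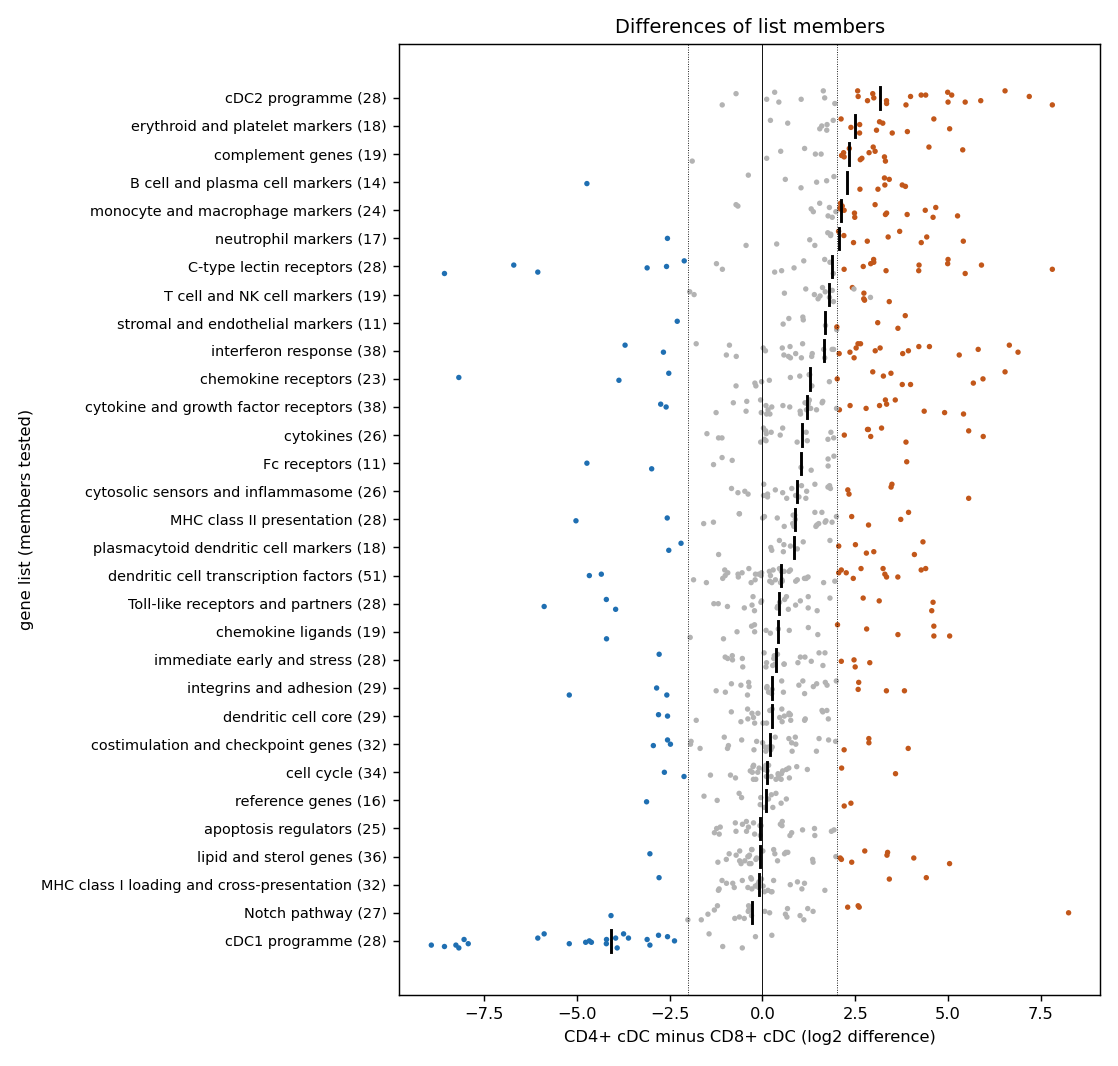
Difference of CD4+ minus CD8+ cDC (x axis, log2) for each gene tested of the 31 gene lists (y axis, members tested in brackets); orange and blue points are large differences, grey points others, black bars list medians, and dotted lines mark 4-fold. The cDC1 list has its median at -4.07 and the cDC2 list at 3.17, while the lists of reference genes, apoptosis, and MHC class I lie near 0.

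Interferon-induced genes were mostly higher in CD4+ cDC. Type I interferon acts through a complex that contains IRF9 on a promoter element built from repeats of GAAA, and induces antiviral enzymes and binding proteins. Of 38 list genes tested, 30 passed higher in CD4+ and 6 in CD8+ cDC, 16 and 2 of them as large differences; the median was 1.66, and 1.49 with genes below background in 1 subset set at their bound. Rtp4, a chaperone-like protein induced by interferon, read 13.42 and 13.83 in CD4+ and 6.71 and 6.77 in CD8+ cDC, 118-fold higher. Oas2 and Oas1a, which make the messenger of RNase L, were 100.1-fold and 39.3-fold higher, and Ifit3, an inhibitor of viral translation, 56.0-fold, at 11.48 and 11.78 against 5.60 and 6.04.

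The list was not uniform. Gbp6 and Iigp1, GTPases that attack vacuoles of parasites and are known for induction by interferon gamma, were higher in CD8+ cDC, at 8.65 and 8.07 against 4.83 and 4.50 and at 9.31 and 8.80 against 6.45 and 6.33. Averaged over all of a gene's probes, both differed by -1.17 and were not large. Ifi211, of the interferon-inducible HIN-200 family but outside the list, was 60.9-fold higher in CD8+ cDC. The factor Irf7 was higher in CD4+ cDC by 0.75. Neutrophils read 12.91 for Oas2 and 13.63 for Rtp4. The parts of array design, slide and purification in these differences cannot be told apart from the subset and were not tested.

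Promoter sequence was read for these genes from RefSeq (GRCm38.p6), as the 250 bases before and 50 after each annotated start. The element GAAANNGAAA, on either strand, was in 8 of 13 promoters of the interferon genes that were large and higher in CD4+ cDC and in 18 of 30 of the whole list. It was in 56 of 776 promoters (7.22%) of all large genes higher in CD4+ cDC and in 25 of 550 (4.55%) of those higher in CD8+ cDC, beside 3.91% of the genes tested and 3.99% of all promoters. A match is a description of the letters and not a binding site. Gbp7, a guanylate-binding protein of the list, read 7.50 and 7.45 in CD4+ cDC and was not well above background on either CD8+ array, at least 7.57-fold higher; with normexp its difference was 1.43. The stretches below, 5′ to 3′ on the gene's strand, show matches in 3 genes higher in CD4+ cDC (Ifit3, Oas1a and Gbp7) and 3 higher in CD8+ cDC (Gpr141b, Ifi211 and Tlr11), with the element in capitals; where the capitals read TTTC first, the element lies on the opposite strand.
Ifit3, chr19:34583392-34583431, plus strand: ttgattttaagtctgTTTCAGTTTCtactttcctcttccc
Oas1a, chr5:120907526-120907560, minus strand: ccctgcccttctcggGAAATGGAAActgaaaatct
Gbp7, chr3:142530268-142530307, plus strand: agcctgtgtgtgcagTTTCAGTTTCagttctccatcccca
Gpr141b, chr13:19732952-19732978, minus strand: taagtcgttgggagtGAAAACGAAAat
Ifi211, chr1:173913059-173913098, minus strand: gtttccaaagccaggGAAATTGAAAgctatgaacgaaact
Tlr11, chr14:50357777-50357816, plus strand: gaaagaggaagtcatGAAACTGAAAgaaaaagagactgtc

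The stretch shown for Ifit3 is also in the promoter of the neighbouring gene Ifit3b.

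IRF4 and IRF8 also bind composite elements with ETS factors such as PU.1, spelled here GGAANNGAAA, which differ from the first element at the second base. These were in 28 of 776 promoters (3.61%) of the large genes higher in CD4+ cDC and in 17 of 550 (3.09%) of those higher in CD8+ cDC, beside 2.90% of the genes tested. Neither share was far from the background. Matches in subset genes were the following, shown as the examples among genes described here.
Cd8a, chr6:71373254-71373293, plus strand: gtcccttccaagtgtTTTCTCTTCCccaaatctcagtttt
Gpr33, chr12:52028256-52028295, minus strand: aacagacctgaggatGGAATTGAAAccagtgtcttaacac
Clec4a1, chr6:122921624-122921663, plus strand: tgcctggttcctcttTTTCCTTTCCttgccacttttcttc

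Gpr33, a chemoattractant receptor, read 3.16 and 3.21 in CD4+ cDC, not well above background, and 9.15 and 9.24 in CD8+ cDC, at least 32.4-fold higher. Cd8a held a second match, nearer the start.

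Complement genes were higher in CD4+ cDC together with macrophage markers. Of 19 complement genes tested, 13 were large and higher in CD4+ cDC and none in CD8+ cDC (5 and none with normexp), with a median of 2.34, and 2.20 with bounds. Cfb, factor B of the alternative pathway, read 11.52 and 9.97 against 5.0 and 5.71, a difference of 5.39, and of 4.62 without the first CD4+ array. C1qa and C1qb, chains of the first component that splenic macrophages make, differed by 3.31 and 3.03, and by 2.51 and 2.28 without that array. Cd55, a membrane inhibitor of complement, had like values on its arrays, 8.55 and 8.57, and was at least 16-fold higher.

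Many markers of monocytes and macrophages were higher in CD4+ cDC as well. C1qa and C1qb belong to both lists, so the lists are not independent. Of 25 measured, 24 were well above background on both CD4+ arrays and 22 on both CD8+ arrays, and 15 of 24 tested were large and higher in CD4+ cDC (9 with normexp). Their summed intensity was 248167 and 144862 on the CD4+ arrays and 35356 and 31909 on the CD8+ arrays, so that the first CD4+ array was the highest. Marco, a scavenger receptor of marginal zone macrophages, read 13.76 and 11.01 in CD4+ cDC and 8.50 and 8.47 in CD8+ cDC (3.90, and 2.52 without the first CD4+ array). Spic, the factor of red pulp macrophages, read 12.95 and 12.14 against 10.43 and 10.36. Adgre1, which encodes F4/80, was even on the CD4+ arrays, 13.39 and 13.24, and 24.1-fold higher. The part of these markers in the complement result was not tested.

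Markers of other blood cells were also read, since the bead-purified CD4+ cells were not sorted further. B cell and plasma cell markers summed to 66806 and 53023 on the CD4+ arrays against 11755 and 11388 on the CD8+ arrays. There, 7 of 14 genes tested were large and higher in CD4+ and 1, Fcrla, in CD8+ cDC (3 and 1 with normexp). Jchain, of secreted antibody, read 15.67 and 15.24 against 12.39 and 12.30, while Pax5, which defines B cells, was not well above background on any of the 4 arrays. Erythroid and platelet markers summed to 735117 and 849082 against 284583 and 306671, with 11 of 18 genes large and higher in CD4+ cDC (7 with normexp).

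T cell and NK cell markers summed to 11584 and 14302 against 5673 and 5327, with 5 of 19 large and higher in CD4+ cDC (1 with normexp, and 8 without the first CD4+ array). In all, 14 passed higher in CD4+ and 2 higher in CD8+ cDC. The 2 were Cd3e, a chain of the T cell receptor complex, at 7.73 and 8.43 in CD4+ and up to 10.07 in CD8+ cDC (-1.96), and Prf1, which encodes perforin, at 6.94 and 6.97 against 8.85 and 8.74 (-1.84). Tcf7, a T cell factor, was higher in CD4+ cDC by 3.41, and by 1.77 with normexp. For plasmacytoid dendritic cells the sums were 82762 and 90967 against 98427 and 85079 and overlapped, with 6 of 18 genes large and higher in CD4+ and 2 in CD8+ cDC and Siglech at 14.45 and 14.87 against 15.97 and 15.71. Neutrophil markers summed to 87226 and 103975 against 100637 and 91356, which also overlapped, although 9 of 17 genes were large and higher in CD4+ cDC (6 with normexp) and 1, the elastase gene Elane, was higher in CD8+ cDC (-2.56, and -1.89 with normexp). Stromal markers summed to 12232 and 6517 against 12125 and 9547, with 4 and 1 of 11 genes large (9 and 0 without the second CD4+ array, 4 and 0 with probes averaged). The 1 was Kdr, a receptor of VEGF, whose probes disagreed: the brighter, used in the fit, read 11.38 and 10.49 in CD4+ and 13.43 and 13.03 in CD8+ cDC, and the dimmer 8.85 and 7.81 against 5.89 and 5.92. The brighter probe also read 13.48 and 13.42 in neutrophils and 12.38 and 12.64 in pre-cDC. It may therefore not track the gene. The part of these cells in any difference above was not tested.

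**Figure D5:**
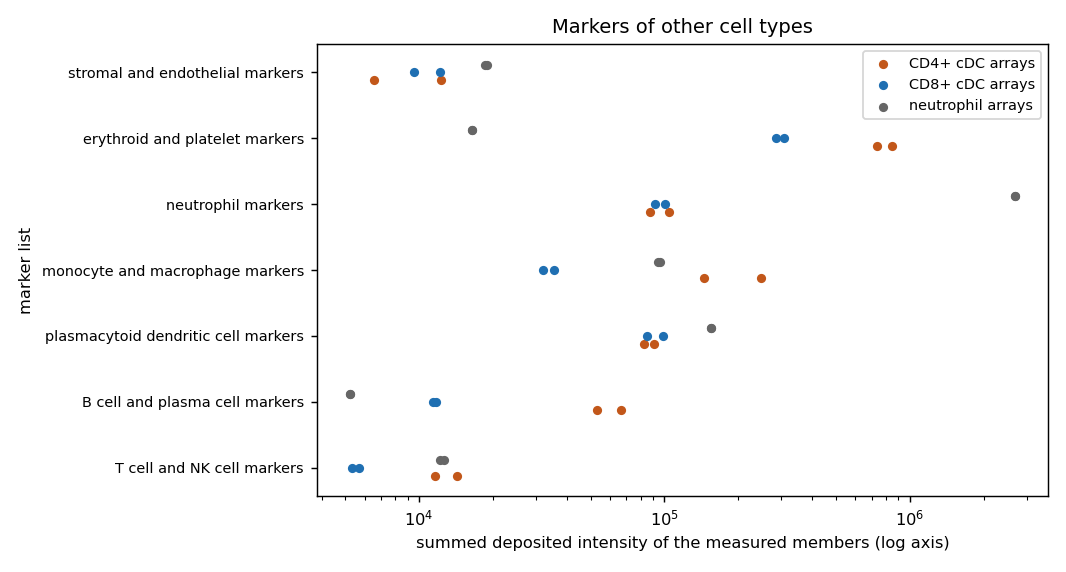
Summed deposited intensity (x axis, log scale) of the measured markers of 7 other cell types (y axis) on each array of CD4+ cDC, CD8+ cDC and, for reference, neutrophils. The CD4+ arrays lie above the CD8+ arrays for macrophage, B cell, erythroid and T cell lists, while the plasmacytoid, neutrophil and stromal sums overlap between the subsets.

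Several of the largest differences lay outside these lists. Higher in CD4+ cDC were Sucnr1, the receptor of succinate, at 12.65 and 12.49 against 4.99 and 5.35 (169-fold), Dscam, an adhesion molecule best known in neurons (117-fold), and Tgm2, a transglutaminase that crosslinks proteins (98.1-fold). Sirpb1b and Sirpb1c, of the signal-regulatory protein family, were 131-fold and 125-fold higher, but they and Sirpb1a are near-identical copies whose signals may be shared. Scn3a, a sodium channel chain, was at least 74.7-fold and Sh2d1b1, an adaptor of SLAM receptors, at least 55.6-fold higher. Mmp12, a macrophage elastase, was at least 32.9-fold higher. All of these had CD4+ arrays within 0.3 of each other.

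Higher in CD8+ cDC were Cutal at 15.04 and 15.07 against 7.67 and 7.64 (168-fold), Pianp, a ligand of the paired receptor PILR (138-fold), Mab21l3 (118-fold) and Ttc39a (109-fold). Pdia5, a protein disulphide isomerase, was 77.6-fold higher, Htr7, a serotonin receptor, 63.8-fold, and P2ry14, the receptor of UDP-glucose, 57.4-fold. Fzd1, a receptor of Wnt proteins, read 6.67 and 4.93 in CD4+ and 11.81 and 11.74 in CD8+ cDC. Its difference of -5.97 was -5.10 without the second CD4+ array and -6.84 without the first. Ppef2, a phosphatase, was at least 56.1-fold and Cltrn, a partner of amino acid transporters, at least 44.4-fold higher.

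The list medians were 0.12 for cell cycle, 0.37 for immediate early and stress, -0.07 for apoptosis and -0.07 for lipid and sterol genes. Over all genes tested the median was 0.14, and 7.51% and 5.14% were large and higher in CD4+ and CD8+ cDC. Of 34 cell cycle genes tested, 2 were large in each direction: Ccnd2, a D cyclin, was higher in CD4+ cDC at 11.71 and 11.64 against 8.04 and 8.15, with Ccnd1 on its side (2.13, and 1.28 with normexp), and Cdk1 (-2.11) and Aurkb were higher in CD8+ cDC, neither of them large with normexp. Aurkb was not well above background on either CD4+ array and was at least 2.74-fold higher, so that its 4-fold difference is not established. None of 25 apoptosis regulators was large in either direction by limma at the 4-fold limit (1 with the processed signal), although 10 passed the test higher in CD4+ and 11 higher in CD8+ cDC. Among lipid and sterol genes 8 of 36 were large and higher in CD4+ cDC, and 1, the scavenger receptor gene Cd36, in CD8+ cDC (3 and 1 with normexp); the former were led by Ptgs2, which encodes cyclooxygenase 2, at 10.24 and 10.38 against 5.22 and 5.32. Immediate early and stress genes held 4 and 1 large differences of 28 (1 and 1 with normexp, 3 and 0 without the second CD4+ array), among them Rgs1 at 2.89 and Nfkbiz at 2.5 (1.88 with normexp).

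Reference genes were read on the same scale. Actb read 18.43 on both CD4+ arrays and 18.43 and 18.33 on the CD8+ arrays, a difference of 0.05 ± 0.05, and Gapdh differed by -0.05 ± 0.04. With the processed signal of the same arrays, scaled by its 75th percentile, these were -0.58 and -0.82. The sorted deposited values are the same on all arrays, so a probe of equal rank reads the same on each. The small deposited differences therefore do not by themselves show that the arrays are comparable. Of 16 reference genes, 2 were large and higher in CD4+ and 1 in CD8+ cDC (1 and 1 with probes averaged, 1 and 2 with normexp). Gusb, a lysosomal glucuronidase, was the large difference on the CD8+ side at 14.95 and 15.07 against 11.91 and 11.86. Tfrc, the transferrin receptor, was 1 of the 2 on the CD4+ side (2.38), but differed by 1.48 as a mean over its probes. The median over all genes tested was 0.14 with the deposited table, -0.02 and 0.27 with the processed signal scaled by its 75th percentile or its median, and -0.08 with normexp.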

How the data were processed

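Cy3-labelled total RNA was measured on Agilent arrays of 1 colour, per the labels. Spot intensities were made with Agilent Feature Extraction 10.7.3.1, per the file headers. The deposited tables of the authors hold linear intensities for 39429 probes shared by both designs; their sorted values are the same on all 14 arrays, as after quantile normalization, and the steps behind them are not given in the sources used here. Their order follows each array's processed signal, with a rank correlation (Spearman) of at least 0.9996 except on the pre-cDC arrays. There it was 0.9922 on each array, and the cause was not tested.

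The log2 of the deposited intensity was used, with 1 probe per gene, the brightest over all 14 arrays. Names came from the RefSeq table of GRCm38.p6: 26811 probes had 1 symbol and 12618 none. Well above background means that the scanner software set this mark on a share of 0.5 or more of a probe's spots; outlier and control spots were left out. All 14 arrays in 7 groups were fitted with limma 3.58.1 in R 4.3.3 with data.table (1.17.8; two-sided, total degrees of freedom 8.21), with Benjamini-Hochberg adjustment over the 13559 genes tested. The groups were the 6 wild-type groups and granulocyte-monocyte progenitors labelled IRF8KO. The 2 IRF8KO arrays, which are not wild-type, thus entered the shared spread and the choice of the brightest probe. A large difference has an adjusted p under 0.05 and at least 4-fold. Where neither array of a subset had a gene above background, "at least" folds divide the brighter mean by the mean of the dim arrays' floors, each floor being the larger of the probe's signal and the array's lowest signal of a probe above background; list medians at bounds use these. The scripts were tested on simulated data. Python 3.11.15, numpy 2.4.6, pandas 2.3.3 and matplotlib 3.10.9 made summaries and figures. The number of arrays limits the precision.

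The members and lists were chosen with earlier results of these data known. Named genes are, per list, up to 4 large differences in each direction among genes well above background on all 4 arrays and up to 3 not above background in 1 subset; all members of the cDC1 and cDC2 lists; outside the lists the 10 largest in each direction and the 8 largest "at least" folds; and reference and gate genes. Other list members named for their role (such as Notch2, Tlr2, Flt3, Cd74, Spic, Pax5, Cd3e and Prf1) were chosen after their values were seen. A few genes are not reported here. Alternatives were the processed signal with 3 scalings, normexp on the median signal and median background with an offset of 50 (no mean signal was in the files), quantile normalization of the 4 arrays, other filters on dim probes, all probes of a gene, a replicate block, leaving out each array and, added after seeing the data, the 4-fold limit at the bound. Same-numbered arrays did not deviate together: correlations of deviations were -0.06 to 0.02 over 21 pairs of groups.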

Additional observations from a re-analysis of the deposited data

How the results depend on the processing

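Of 1715 large differences, normexp gave 826, 751 of them among the 1715, requiring all 4 arrays to be well above background 1098, and a 2-fold limit gave 4643; other settings gave 1510 to 2008. The replicate block, whose numbers do not pair the arrays, gave 1713 large and 9903 passing genes. Leaving out each array gave 1674 to 1887 large and 9070 to 9658 passing genes; the lone array left in a group is then assumed to vary like the others. Of 212 named large differences, 142 were large under every alternative and 70 were not under at least 1, 58 of them under normexp; normexp shrank the 212 by a median of 1.02. The list medians changed sign for 7 of 31 lists. With the deposited table these 7 lay within 0.29 of 0; under the alternatives the one for reference genes reached -0.74. Counting genes below background in 1 subset only where they were at least 4-fold at their bound, an alternative chosen after seeing the data, gave 1461.

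Some small differences reversed. With the processed signal scaled by the 75th percentile over shared probes, by that over probes detected on all arrays, or by array medians, and with normexp, in that order, Batf3 was -0.30, -0.10, -0.0053 and -0.56, Mgl2 -0.47, -0.26, -0.17 and -0.20, and Ppia -0.60, -0.39, -0.30 and -0.54. Sdha was -0.0425 by the first and -0.57 by the last, Rps18 -0.0504 by the first and Tbp -0.0892 by the last. The large difference of Kdr, -2.29, was 0.0661 as a mean over its probes, which disagreed. The cause of the scaling reversals was not tested.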
